A study of Mus musculus with 4 samples.

Results

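The cells described here are the Notch3 positive vascular mural cells of the mouse colon, the contractile cells that wrap the walls of blood vessels. They were chosen by their counts of unique molecular identifiers (UMIs), each of which stands for 1 captured RNA molecule. A cell first needed 500 or more UMIs and 250 or more genes, with no more than 25% of its UMIs mitochondrial, which 44356 of 49851 barcodes met. It then needed at least 1 UMI of Notch3 and at least 3 UMIs summed over Rgs4, Rgs5, Pln, Rergl, Kcnj8 and Abcc9. It could hold no UMI of Ptprc, the leukocyte gene for CD45, or of Pecam1, the endothelial gene for CD31. It also needed fewer than 2 UMIs of the epithelial gene Epcam and fewer than 2 of Kit, the receptor gene of interstitial cells of Cajal and mast cells. In all, 1281 of the 44356 cells were members, with 441 in DSS 1, 325 in DSS 2, 241 in control 1 and 274 in control 2.

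Colons of specific-pathogen-free mice aged 7 weeks were taken at their middle part and read by droplet sequencing of transcript 3′ ends. The DSS mice drank 3% dextran sulfate sodium (DSS), a polysaccharide that damages the gut epithelium, for 2 days. The control mice drank clean water. There were 2 libraries per group, and the sources used here name no genotype, strain or sex. Whether the libraries of a group stem from separate animals is not stated in the labels, so the p-values measure the spread between libraries, which may be technical. The libraries held 101051573 to 109472082 UMIs. The members had median depths of 6664 and 4816 UMIs in DSS 1 and DSS 2 and of 4446 and 4323 UMIs in control 1 and control 2. No barcode occurred among the members of more than 1 library, and 10 member barcodes occurred as cells of other kinds in another library. Levels are the summed UMIs of a gene in a cell class of 1 library per 1000000 UMIs of that class (CPM), and 4 values in a row stand for DSS 1, DSS 2, control 1 and control 2.

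Mural cells comprise the smooth muscle cells of arteries and veins, whose contraction sets vessel width, and the pericytes that sit on capillaries. Notch3 is a receptor that these cells use to read Jagged ligands on endothelial and neighbouring mural cells. Cleavage frees its intracellular part, which binds the DNA-binding protein RBPJ and switches on target genes such as Hey2, Heyl and Nrarp. Serum response factor and its partner myocardin act at CArG boxes and drive the contractile genes. In the gut wall, visceral smooth muscle contracts by the same apparatus and answers enteric nerves, so it is the natural comparison for vascular smooth muscle.

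The promoters of 4 genes to which the results return are shown, because 2 belong to the Notch pathway and 2 to the contractile program. Each is the 250 bases before the RefSeq start on GRCm38.p6, written 5′ to 3′ on the strand of the gene. Capitals mark matches to TGGGAA, the core letters bound by RBPJ, searched on both strands in the first pair, and to the CArG box on either strand in the other pair. The Notch3 window, chr17:32166891-32167140, minus strand, held no TGGGAA on either strand. The Hey2 window, chr10:30842784-30843033, minus strand, held 1 match on the opposite strand, 207 to 202 bases before the start. The window of Myl9, chr2:156775214-156775463, plus strand, held 1 CArG box, 161 to 152 bases before the start. The window of Acta2, chr19:34255374-34255623, minus strand, held no exact CArG box.
Notch3: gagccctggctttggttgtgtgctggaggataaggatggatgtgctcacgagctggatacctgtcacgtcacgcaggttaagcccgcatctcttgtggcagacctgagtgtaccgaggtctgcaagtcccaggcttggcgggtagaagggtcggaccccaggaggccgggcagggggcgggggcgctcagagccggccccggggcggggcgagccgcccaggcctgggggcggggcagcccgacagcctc
Hey2: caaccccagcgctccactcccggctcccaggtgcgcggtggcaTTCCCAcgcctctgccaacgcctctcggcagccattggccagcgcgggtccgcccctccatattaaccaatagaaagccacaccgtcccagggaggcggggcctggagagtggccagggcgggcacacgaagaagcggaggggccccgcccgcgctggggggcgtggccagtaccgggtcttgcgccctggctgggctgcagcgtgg
Myl9: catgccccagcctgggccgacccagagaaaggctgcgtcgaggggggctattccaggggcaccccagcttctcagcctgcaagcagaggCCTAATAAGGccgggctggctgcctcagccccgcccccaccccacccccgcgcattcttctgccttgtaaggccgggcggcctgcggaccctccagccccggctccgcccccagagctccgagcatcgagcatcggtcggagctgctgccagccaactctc
Acta2: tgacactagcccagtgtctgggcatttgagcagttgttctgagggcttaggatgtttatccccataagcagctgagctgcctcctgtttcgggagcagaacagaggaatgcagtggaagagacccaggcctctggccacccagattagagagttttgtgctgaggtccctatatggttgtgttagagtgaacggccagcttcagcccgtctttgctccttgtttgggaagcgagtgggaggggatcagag
Among all 32851 promoters of this length in the RefSeq table, 21.6% held TGGGAA and 1.47% held a CArG box. Counted per gene, as for the lists below, the shares were 24.1% and 1.62% of 27025 genes. Of the 30 contractile genes listed, 23 had a promoter there, and 4 of these held a CArG box (Ldb3, Myl6, Myl9 and Srf). Of the 8 Notch targets listed, 3 had a promoter there, and 2 of these held TGGGAA. A match describes letters only, and a window without one says nothing of the factor.

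The genes that chose the cells are given as a description, without a test. Notch3 stood at 511 and 520.2 CPM in DSS mural cells and 535 and 712 CPM in control mural cells. Its level was close in 3 libraries and highest in control 2. Pln, which encodes phospholamban, the inhibitor of the calcium pump of the sarcoplasmic reticulum (chr10:53337667-53345987, plus strand, GRCm38), stood at 1096 and 1243 CPM in DSS and 1964 and 895 CPM in control cells. Rergl, a gene of a Ras-like protein, stood at 327 and 174 CPM in DSS and 542 and 151 CPM in control cells, with control 1 highest for both genes. Rgs5 (chr1:169655501-169695813, plus strand), a regulator that shortens signalling through G proteins, stood at 1655 and 1417 CPM in DSS and 2108 and 3783 CPM in control cells, lower in both DSS libraries. Rgs4, of the same family, stood at 489.5 and 366 CPM in DSS and 751 and 600.3 CPM in control cells, again lower in both DSS libraries. The gate counted raw UMIs, so a deeper cell could pass at a lower CPM. The members of DSS 1 had the highest median depth, whereas Rgs4 and Rgs5 were lowest in DSS 2. The part of depth in these levels was not tested. Kcnj8 and Abcc9, which lie side by side on chromosome 6 and encode the pore and the regulatory subunit of the ATP-sensitive potassium channel of vessels, are the last pair. Kcnj8 stood at 50.6 and 18.2 CPM in DSS and 54.6 and 78.9 CPM in control cells, and Abcc9 at 114 and 69.1 CPM in DSS and 114 and 177 CPM in control cells, both lowest in DSS 2 and highest in control 2.

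Few cells lay at the limits of the sum over the 6 genes. Members with a sum of exactly 3 numbered 5, 7, 3 and 5, and cells that met every other limit with a sum of 2 numbered 3, 3, 1 and 6. The limit on Notch3 was the closer one. Members with a single Notch3 UMI numbered 102, 110, 95 and 51, and cells with no Notch3 UMI that met the other limits numbered 853, 553, 578 and 237. Scrublet called 19, 16, 2 and 4 members doublets, and they were kept.

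The label was checked against other markers. Of the 24 mural and pericyte genes listed, all 24 had UMIs in members, and their summed level was 7607, 7364, 8076 and 8297 CPM. In visceral smooth muscle, described further on, it was 5095, 5721, 3981 and 4834 CPM. The 30 contractile genes together gave 60282, 59965, 71698 and 52662 CPM in members, below the 87679, 64283, 118342 and 69885 CPM of visceral smooth muscle in every library. These sums include Actg2, Des and Myh11, which chose the visceral cells, so this direction is in part set by that gate. The contractile genes outside the gate are compared further on. The 16 endothelial genes, such as Cdh5 and Kdr, summed to 281, 275, 323 and 275 CPM, against 10661, 9643, 14396 and 7063 CPM in endothelial cells (Pecam1 positive). The 15 epithelial genes summed to 474, 937, 969.5 and 1702 CPM, against 27206, 36849, 26001 and 30951 CPM in epithelial cells. The 16 immune genes summed to 5163 CPM in DSS 1, 852 CPM in DSS 2, 163 CPM in control 1 and 1959.5 CPM in control 2, the widest range of these lists. The 14 fibroblast genes were the highest of these other lists except in DSS 1, at 3870.5, 4307, 4745 and 2039 CPM, against 46515, 51349.6, 45219.9 and 51367 CPM in fibroblasts. Dcn at 3 or more UMIs or any UMI of Pdgfra, both fibroblast genes, was found in 70, 58, 42 and 46 members, or 15.9%, 17.8%, 17.4% and 16.8%. The data thus carry the mural label with a fibroblast signal in part of the cells, and the gene lists that split the members are given with and without those cells.

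Members made up 3.66% of the cells of DSS 1 (95% exact binomial interval 3.34 to 4.01, which covers counting error only) and 2.65% of DSS 2 (2.38 to 2.95), against 2.59% of control 1 (2.27 to 2.93) and 2.55% of control 2 (2.26 to 2.87). DSS 1 stood above the other libraries, and DSS 2 lay inside the intervals of the controls. The mean share was 3.16% ± 0.715 in DSS and 2.57% ± 0.0256 in control (SD, n = 2 each; exact two-sided permutation p = 0.33, the smallest that 2 libraries against 2 allow). The difference of 0.591 percentage points became -0.0243 with a limit of 10% mitochondrial UMIs and 0.0564 when each cell was thinned to 2000 UMIs. It was -1.59 among cells with no Ptprc and fewer than 2 Epcam UMIs, 0.0856 without DSS 1 and 1.096 without DSS 2.

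**Figure D1:**
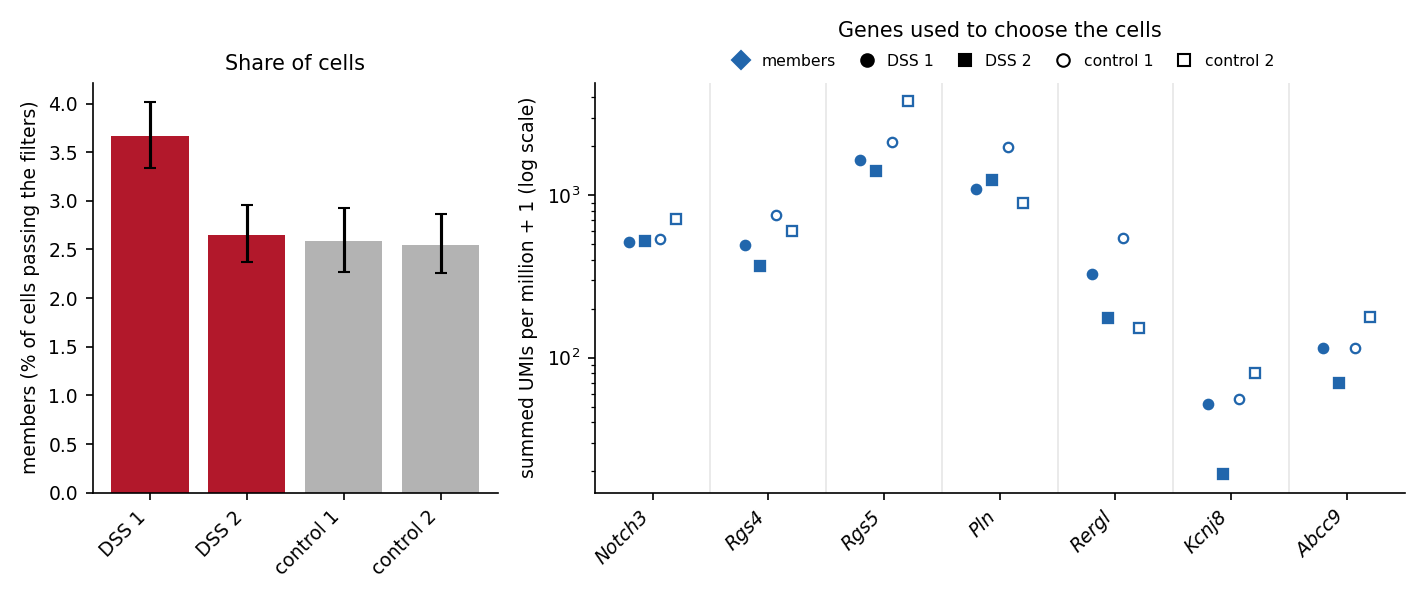
The left plot gives the share of cells that were members (percent, bars from 0) with 95% exact binomial intervals for each library. The right plot gives the level of each gene used to choose the cells (CPM plus 1, log axis), with 1 point per library; Notch3 spans 511 to 712 CPM, and Rgs5 and Notch3 are highest in control 2.

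Notch target genes were higher in mural cells than in the other contractile and stromal cells. The comparison cells were 256 visceral smooth muscle cells, with at least 5 Actg2, 2 Des and 2 Myh11 UMIs and no Notch3, Pln or Rergl, and 6267 fibroblasts, with at least 3 Dcn and 2 Col1a2 UMIs and none of Notch3 or the 6 summed genes. All 7 Notch targets tested were higher in mural cells than in visceral smooth muscle, and all 7 were higher than in fibroblasts. Across all genes, 11.8% were called higher than in visceral smooth muscle (1235 of 10501) and 25.4% were called higher than in fibroblasts (3262 of 12822). The median log2 fold change of the targets was 6.71 over visceral smooth muscle, or 4.57 with genes unseen there set to their bound, and 4.27 over fibroblasts, beside medians of 0.01 and -0.02 over all genes. The classes were defined by gate genes, so these tests ask whether a difference is stable over the 4 libraries, with library as a block.

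Hey2, a repressor that acts downstream of Notch, stood at 126, 134, 169 and 124 CPM in mural cells. It was at 0 CPM in visceral smooth muscle and at 0.936, 1.35, 0.884 and 0.739 CPM in fibroblasts. The 4 mural libraries lay close together and far above both other classes (at least 78.8-fold higher, edgeR adjusted p = 7.90e-08 over visceral smooth muscle; log2 fold change 7.01, SE 0.18, edgeR adjusted p = 9.77e-11 over fibroblasts). Nrarp, a feedback inhibitor of Notch, followed the same pattern with 108, 116, 114 and 108 CPM in mural cells, 0 CPM in visceral smooth muscle and 0.468, 1.08, 0.295 and 0.924 CPM in fibroblasts. It passed against both classes (at least 64.8-fold higher, edgeR adjusted p = 1.39e-07 over visceral smooth muscle; log2 fold change 7.15, SE 0.22, edgeR adjusted p = 1.94e-10 over fibroblasts). For both genes every mural library exceeded every library of the other classes.

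Heyl, a relative of Hey2 and a known Notch3 target in vessels, stood at 96.5, 67.2, 110.2 and 70.2 CPM in mural cells, against 5.81, 0, 0 and 0 CPM in visceral smooth muscle (log2 fold change 4.57, SE 0.40, edgeR adjusted p = 3.50e-07) and 3.90, 3.41, 7.07 and 4.43 CPM in fibroblasts (log2 fold change 4.27, SE 0.17, edgeR adjusted p = 1.11e-09). Hey1, of the same family, stood at 8.49, 30.2, 8.33 and 17.4 CPM in mural cells, and both libraries numbered 2 were above both numbered 1. It was unseen in visceral smooth muscle (at least 8.86-fold higher, edgeR adjusted p = 0.00116). Nrip2, a nuclear receptor cofactor, stood at 249, 239, 347 and 227 CPM in mural cells, and visceral smooth muscle held 2 UMIs of it (ratio of levels 227, 95% counting interval 62.7 to 1876, edgeR adjusted p = 1.71e-09). Hes1, a repressor that other pathways induce as well, was present in all 3 classes. It stood at 1536, 844, 757 and 1219 CPM in mural cells, at 145, 522, 199 and 592 CPM in visceral smooth muscle (log2 fold change 1.84, SE 0.30, edgeR adjusted p = 2.50e-04) and at 466, 965, 394 and 742 CPM in fibroblasts (log2 fold change 0.83, SE 0.24, edgeR adjusted p = 0.0105). Mural and fibroblast libraries overlapped for Hes1, and its call over fibroblasts was lost without DSS 1 (log2 fold change 0.51).

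Pdgfrb, the receptor by which endothelial PDGF-B recruits mural cells, stood at 352, 279, 300.0 and 459.9 CPM in mural cells, against 66.4, 62.2, 53.3 and 64.0 CPM in visceral smooth muscle (log2 fold change 2.51, SE 0.20, edgeR adjusted p = 9.77e-08) and 136, 91.6, 95.2 and 104 CPM in fibroblasts (log2 fold change 1.73, SE 0.13, edgeR adjusted p = 4.00e-07). Every mural library exceeded every library of the other classes. Hes5, the 8th target listed, had too few UMIs to be tested.

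Among ligands, Jag1 (chr2:137081456-137116644, minus strand), the Jagged ligand that mural cells pass to their neighbours, stood at 147, 199, 155 and 289.5 CPM in mural cells. Visceral smooth muscle held 8.31, 24.9, 9.70 and 42.7 CPM (log2 fold change 3.56, SE 0.26, edgeR adjusted p = 6.11e-08) and fibroblasts 9.05, 26.1, 7.37 and 13.7 CPM (log2 fold change 3.87, SE 0.23, edgeR adjusted p = 3.30e-08). Jag2, Dll1 and Dll4 did not exceed 7.10 CPM in any mural library. Among the other receptors, Notch1 was higher in mural cells, at 71.0, 52.8, 62.0 and 93.9 CPM, than in visceral smooth muscle, at 2.49, 6.22, 9.70 and 5.34 CPM (log2 fold change 4.05, SE 0.37, edgeR adjusted p = 5.33e-07), and than in fibroblasts, at 11.4, 15.99, 7.37 and 11.8 CPM (log2 fold change 2.57, SE 0.21, edgeR adjusted p = 5.70e-07). Notch2 had similar values in mural cells, at 36.7, 53.4, 38.9 and 41.8 CPM, and visceral smooth muscle, at 31.6, 43.5, 58.2 and 37.3 CPM (log2 fold change 0.09, SE 0.24, edgeR adjusted p = 0.869). The shared machinery of Notch signalling, such as Rbpj, the Maml coactivators, the protease gene Adam10 and the γ-secretase genes, gave 2 higher and 0 lower calls among 15 genes tested against visceral smooth muscle, where 9.39% of all genes were lower. Against fibroblasts it gave 3 higher and 7 lower, where 26.2% of all genes were lower. Rbpj itself stood at 64.2, 55.9, 57.4 and 63.9 CPM in mural cells and 90.5, 74.6, 121 and 69.4 CPM in visceral smooth muscle (log2 fold change -0.51, SE 0.21, edgeR adjusted p = 0.114).

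**Figure D2:**
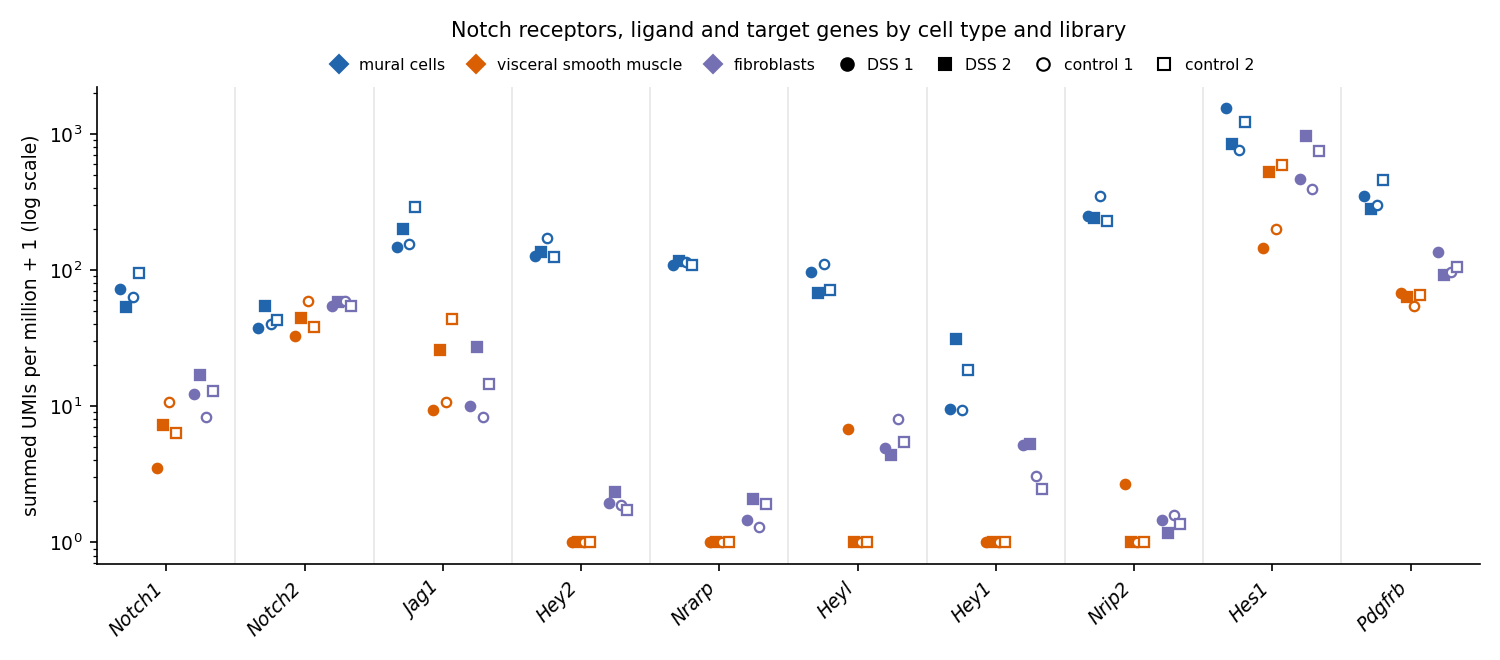
Each point is 1 library (filled for DSS, open for control), and the vertical axis is the level in CPM plus 1 on a log axis, for mural cells, visceral smooth muscle and fibroblasts. Hey2 and Nrarp lie between 108 and 169 CPM in mural cells and at 0 in visceral smooth muscle, whereas Notch2 has similar levels in these 2 classes.

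Core contractile genes such as Acta2 and Myl9 had overlapping levels in mural cells and visceral smooth muscle, while several channel and receptor genes differed. Of 27 contractile genes tested, 6 were higher and 9 were lower in mural cells than in visceral smooth muscle (median log2 fold change -0.04), where 11.8% of all genes were called higher and 9.39% lower. Against fibroblasts, all 30 contractile genes tested were higher (median 4.60), where 25.4% of all genes were. Acta2, which encodes smooth muscle actin, stood at 10053, 8856, 13317 and 7923 CPM in mural cells and at 11519.7, 7629.6, 14954 and 9549.9 CPM in visceral smooth muscle (log2 fold change -0.04, SE 0.16, edgeR adjusted p = 0.916). Myl9, the regulatory myosin light chain, stood at 5050.2, 4515, 6435 and 3662 CPM in mural cells and at 4805, 3849, 7778 and 3425 CPM in visceral smooth muscle (log2 fold change 0.10, SE 0.16, edgeR adjusted p = 0.769). The libraries of the 2 classes overlapped for both genes. Mylk, the kinase that activates this light chain, gave no call either (log2 fold change -0.25, SE 0.17, edgeR adjusted p = 0.392).

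The gene for calponin 1, Cnn1, which binds actin and holds back myosin, was the contractile gene furthest below visceral smooth muscle among those tested. It stood at 273, 298, 307 and 263 CPM in mural cells and at 2879.5, 2151, 5746 and 2278 CPM in visceral smooth muscle (log2 fold change -3.33, SE 0.23, edgeR adjusted p = 3.26e-08). Pgm5, a protein of adherens-type junctions of muscle (log2 fold change -1.92, SE 0.17, edgeR adjusted p = 4.74e-07), Csrp1, a LIM protein (log2 fold change -1.20, SE 0.17, edgeR adjusted p = 7.01e-05), and Smtn, which encodes smoothelin (log2 fold change -1.12, SE 0.18, edgeR adjusted p = 1.95e-04), were also lower. In the other direction, Itga8, an integrin subunit, stood at 246, 289.6, 260.2 and 259 CPM in mural cells, against 122, 118, 107 and 155 CPM in visceral smooth muscle (log2 fold change 1.12, SE 0.18, edgeR adjusted p = 2.43e-04). Ldb3, a Z-disc protein, was higher too (log2 fold change 1.36, SE 0.25, edgeR adjusted p = 6.78e-04). Sorbs2, an adaptor between actin and signalling proteins, stood at 1332, 1643, 1493 and 1455 CPM in mural cells, far above its 133, 68.4, 126 and 80.0 CPM in visceral smooth muscle (log2 fold change 3.84, SE 0.23, edgeR adjusted p = 7.92e-09). Myocd, which encodes myocardin, did not pass (log2 fold change 0.36, SE 0.18, edgeR adjusted p = 0.195).

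Among 20 ion channel and calcium handling genes tested, 9 were higher and 3 lower in mural cells than in visceral smooth muscle, with a median of 0.40. Over all genes, 11.8% were called higher and 9.39% lower. Kcna5, a voltage-gated potassium channel (chr6:126532551-126535412, minus strand), stood at 189.6, 145, 158 and 188 CPM in mural cells and was at 0 in visceral smooth muscle (at least 102-fold higher, edgeR adjusted p = 4.29e-08). Kcnab1, a subunit that accompanies such channels, stood at 163, 128, 184 and 164 CPM in mural cells, and visceral smooth muscle held a single UMI (ratio of levels 279, 95% counting interval 49.97 to 11029.5, edgeR adjusted p = 3.25e-09). Kcnma1, the pore of the calcium-activated potassium channel, went the other way. It stood at 72.7, 84.2, 52.8 and 95.5 CPM in mural cells and 248, 286, 160.0 and 245 CPM in visceral smooth muscle (log2 fold change -1.57, SE 0.18, edgeR adjusted p = 4.72e-06). Its partner Kcnmb1 gave no call (log2 fold change -0.10, SE 0.24, edgeR adjusted p = 0.845), nor did the L-type calcium channel gene Cacna1c (log2 fold change 0.28, SE 0.20, edgeR adjusted p = 0.406).

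Of 17 receptors for vasoactive signals tested, 10 were higher and 4 lower in mural cells than in visceral smooth muscle (median 1.51). The shares over all genes were 11.8% higher and 9.39% lower. P2rx1 (chr11:72999103-73015200, plus strand), the channel opened by ATP that sympathetic nerves release, stood at 228, 223, 269 and 206 CPM in mural cells and at 0 in visceral smooth muscle (at least 134-fold higher, edgeR adjusted p = 2.11e-08). Adra1a, the α1A adrenergic receptor that noradrenaline uses to contract vessels, stood at 74.4, 160.2, 51.9 and 140.4 CPM in mural cells, with both libraries numbered 2 above both numbered 1. Visceral smooth muscle held a single UMI of it (ratio of levels 181, 95% counting interval 32.4 to 7154, edgeR adjusted p = 2.38e-08). Olfr558 (chr7:102702215-102712064, plus strand), an odorant receptor gene, stood at 332, 278, 382 and 365 CPM in mural cells and at 0 in visceral smooth muscle (at least 195-fold higher, edgeR adjusted p = 9.27e-09). Ednra, the endothelin A receptor, stood at 219, 186, 194 and 236 CPM in mural cells, above its 34.1, 149, 48.5 and 117 CPM in visceral smooth muscle in all 4 libraries (log2 fold change 1.63, SE 0.28, edgeR adjusted p = 3.80e-04). Ptgir, the prostacyclin receptor, stood at 31.9, 62.8, 29.6 and 55.2 CPM in mural cells, and visceral smooth muscle held 2 UMIs (ratio of levels 37.8, 95% counting interval 10.4 to 314, edgeR adjusted p = 2.79e-06).

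Among the 21 genes of tone signalling tested, 11 were higher and 4 lower in mural cells (median 0.81), beside 11.8% and 9.39% of all genes. Rock1, the kinase that holds back the myosin phosphatase, stood at 1276, 1401, 1388 and 1534 CPM in mural cells and 234, 354, 194 and 405 CPM in visceral smooth muscle (log2 fold change 2.35, SE 0.17, edgeR adjusted p = 5.17e-08). Gucy1a1, a subunit of the guanylate cyclase that nitric oxide activates, stood at 599, 474, 591 and 455 CPM in mural cells and 116, 168, 92.1 and 117 CPM in visceral smooth muscle (log2 fold change 2.20, SE 0.19, edgeR adjusted p = 2.50e-07). Both were higher in every library. Pde3a, a phosphodiesterase that breaks down cAMP, was higher (log2 fold change 1.75, SE 0.17, edgeR adjusted p = 1.11e-06), whereas Pde5a, which breaks down cGMP, was lower (log2 fold change -0.98, SE 0.16, edgeR adjusted p = 3.02e-04).

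Among the largest differences from visceral smooth muscle were genes with no UMI in 1 of the classes. Apold1, a gene first described in endothelium, stood at 168, 476, 80.6 and 365 CPM in mural cells (at least 153-fold higher, edgeR adjusted p = 2.11e-08) and was higher in both libraries numbered 2. Olfml2a, Susd5, Xirp1, Slc7a2, Tcf15 and Slc38a11 were also at 0 in visceral smooth muscle, and mural cells were at least 58.3-fold higher in each. On the other side, Sfrp2, a secreted Wnt modulator, had no UMI in any member and stood at 52.3, 56.0, 107 and 69.4 CPM in visceral smooth muscle (at least 139.6-fold lower, edgeR adjusted p = 1.21e-07). Chrm2, the muscarinic receptor of gut muscle, had 4 UMIs among all members and stood at 89.7, 24.9, 169.7 and 128 CPM in visceral smooth muscle (log2 fold change -7.08, SE 0.40, edgeR adjusted p = 3.37e-09). Hhip, an inhibitor of Hedgehog (log2 fold change -7.64, SE 0.35, edgeR adjusted p = 7.05e-10), Igfbp2, a binding protein of insulin-like growth factors (log2 fold change -8.63, SE 0.37, edgeR adjusted p = 5.67e-10), Rspo3, an amplifier of Wnt signals (log2 fold change -6.24, SE 0.45, edgeR adjusted p = 4.64e-08), and Bdkrb2, the bradykinin B2 receptor (log2 fold change -6.56, SE 0.33, edgeR adjusted p = 1.48e-09), were lower in mural cells too. Rims1, Sntg2, Sema3a and Rbp4 had log2 fold changes of -6.56 to -5.87, and Shisa3 and Zfp536, with 1 UMI each in members, completed the 12 largest falls. The visceral cells also held fibroblast RNA, as the 14 fibroblast genes summed to 2326, 5049, 1076 and 5943 CPM there. The 18 fibrillar matrix genes summed to 7572, 12573, 5314 and 10254 CPM in these cells and to 4975, 5089, 6803 and 4826 CPM in members. The part of such RNA in the differences was not tested.

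The visceral gate used here set no limit on Rgs4, Rgs5, Kcnj8, Abcc9 or Dcn, and those cells held 1389.5, 821, 1639 and 1344 CPM of Rgs5. A narrower gate without these genes found only 17 cells, and its fit called 400 of 7708 genes (5.19%), of which 330 were higher (4.28%) and 70 lower (0.908%). The median over all genes was 0.89 in that fit, and the split was 133 higher and 118 lower with relative log expression scaling and 82 higher and 74 lower with DESeq2. With the gate used here, leaving out DSS 1, which held 158 of the 256 cells, gave 1431 calls in place of 2221.

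**Figure D3:**
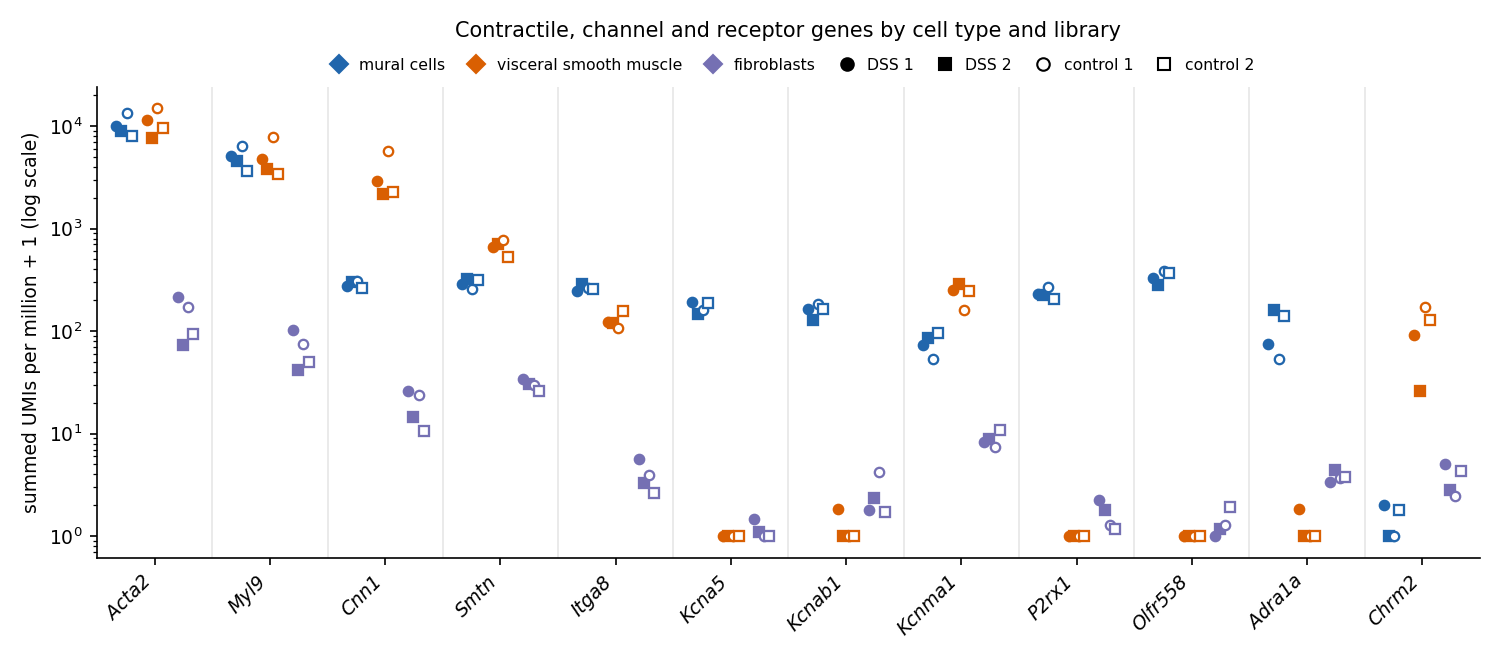
Levels of contractile, channel and receptor genes are plotted as CPM plus 1 (log axis), with 1 point per library, for mural cells, visceral smooth muscle and fibroblasts. Acta2 and Myl9 overlap between the 2 muscle classes, Cnn1 and Chrm2 are lower in mural cells, and Kcna5, P2rx1 and Olfr558 are at 0 in visceral smooth muscle.

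Fibroblasts are the other stromal cells that carry Pdgfrb, and 51.7% of 12822 genes differed from them. Of 19 ion channel genes tested, 18 were higher in mural cells (median 4.67), and of 21 tone signalling genes 18 were higher and 2 lower (2.35). Fibrillar matrix genes went the other way, with 1 higher and 15 lower of 17 (-3.29), where 26.2% of all genes were lower. Genes of inflammation gave 2 higher and 24 lower of 33, type I interferon genes 1 higher and 22 lower of 26, and interferon γ and antigen presentation genes 0 higher and 25 lower of 31. The largest rises included Susd5 (ratio of levels 1424, 95% counting interval 486 to 6916, edgeR adjusted p = 7.16e-11), Gja4, a connexin of vessel walls (log2 fold change 8.92, SE 0.20, edgeR adjusted p = 7.16e-11), Scn4b, a sodium channel β subunit (log2 fold change 9.52, SE 0.26, edgeR adjusted p = 1.05e-10), and Kcna5 (log2 fold change 9.88, SE 0.28, edgeR adjusted p = 1.36e-10). The largest falls included Pi16 (log2 fold change -6.13, SE 0.27, edgeR adjusted p = 2.63e-09), Il33, an alarmin (log2 fold change -5.96, SE 0.21, edgeR adjusted p = 4.82e-10), and Igfbp6 (log2 fold change -5.26, SE 0.21, edgeR adjusted p = 1.12e-09). Ebf1, a transcription factor of pericytes, stood at 571, 604, 593 and 843 CPM in mural cells and 472, 654, 657 and 749.5 CPM in fibroblasts, where it gave no call (log2 fold change 0.08, SE 0.12, edgeR adjusted p = 0.602). It was near 0 in visceral smooth muscle apart from DSS 2, at 4.15, 56.0, 0 and 0 CPM (log2 fold change 6.12, SE 0.46, edgeR adjusted p = 7.30e-08). Without the members that held Dcn or Pdgfra UMIs, the count against fibroblasts was 6857 of 12675, and contractile and Notch target counts were unchanged.

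Mural cells also carried genes of factors that act on vessels. Of 22 tested, 13 were higher and 5 lower than in visceral smooth muscle (median 1.69), beside 11.8% and 9.39% of all genes. Kitl, the ligand of Kit, stood at 470.1, 663, 532 and 583 CPM in mural cells, against 94.7, 193, 136 and 69.4 CPM in visceral smooth muscle (log2 fold change 2.30, SE 0.20, edgeR adjusted p = 3.40e-07) and 77.4, 108, 83.4 and 103 CPM in fibroblasts (log2 fold change 2.63, SE 0.11, edgeR adjusted p = 2.50e-09). Fgf1, a fibroblast growth factor, stood at 115, 120.0, 111 and 125 CPM in mural cells, against 4.15, 6.22, 0 and 0 CPM in visceral smooth muscle (log2 fold change 5.09, SE 0.37, edgeR adjusted p = 5.36e-08). Both were higher in mural cells in every library. Angpt2, which antagonises the endothelial receptor Tie2, stood at 40.1, 47.7, 42.6 and 58.4 CPM in mural cells and 1.56, 0.449, 0.295 and 0.554 CPM in fibroblasts (log2 fold change 5.99, SE 0.30, edgeR adjusted p = 9.03e-09). Cxcl12, a chemokine, was lower in mural cells, at 111, 139, 142 and 96.2 CPM, than in fibroblasts, at 798, 690.0, 694 and 463 CPM (log2 fold change -2.40, SE 0.13, edgeR adjusted p = 1.84e-08). Adamts1, a secreted protease, stood at 759, 2367, 158 and 1977 CPM in mural cells, far higher in the libraries numbered 2, and at 206, 491, 33.9 and 715 CPM in visceral smooth muscle, which shared that split (log2 fold change 1.98, SE 0.19, edgeR adjusted p = 8.96e-07). Mfge8, a glycoprotein of the vessel wall, stood at 1134, 1159, 1363 and 1240.1 CPM in mural cells and 115, 106, 92.1 and 85.4 CPM in visceral smooth muscle (log2 fold change 3.63, SE 0.19, edgeR adjusted p = 2.00e-09), whereas Postn, a matrix protein, was lower in mural cells (log2 fold change -4.43, SE 0.20, edgeR adjusted p = 7.05e-10).

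The gate takes cells with different pairs of genes, and the members split by them. A total of 882 members held Pln or Rergl without Kcnj8 or Abcc9, 204 held Kcnj8 or Abcc9 without Pln or Rergl, 141 held both pairs and 54 held neither. The Pln/Rergl subset carried the contractile program and the Notch target Hey2, and the Kcnj8/Abcc9 subset carried Vtn and Higd1b, which are pericyte markers, together with fibroblast and matrix genes. The list of 24 mural and pericyte genes as a whole went both ways, with 7 called higher and 10 lower in the Pln/Rergl subset. The Pln/Rergl subset made up 82.3% and 89.3% of the cells of both subsets in the DSS libraries, and 80.8% and 70.3% in the control libraries. The mean was 85.8% ± 4.89 in DSS and 75.6% ± 7.44 in control (SD, n = 2 each; exact two-sided permutation p = 0.33, the smallest possible). Without the members that held Dcn or Pdgfra UMIs the means were 94.6% in DSS and 86.8% in control, and the groups overlapped.

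The subsets differed in 2133 of 8607 genes tested (24.8%), with 1078 higher (12.5%) and 1055 lower (12.3%) in the Pln/Rergl subset. Their cells came from the same libraries, library was a block in the fit, and the 4 genes that split them were left untested. The Kcnj8/Abcc9 subset carried most of the fibroblast signal. Cells with at least 3 Dcn UMIs or any Pdgfra UMI were 5.94%, 9.54%, 5.08% and 3.11% of the Pln/Rergl subset and 61.5%, 79.3%, 66.7% and 47.1% of the Kcnj8/Abcc9 subset. The 14 fibroblast genes summed to 1528, 2306, 1642 and 1792 CPM in the Pln/Rergl subset and to 18759, 20291, 22374 and 2965 CPM in the Kcnj8/Abcc9 subset, where control 2 stood far below the other 3 libraries. The data therefore go in part against the mural label for this subset, which is called here by its 2 genes. Leaving out the cells that held those UMIs removed 40 of 65, 23 of 29, 28 of 42 and 32 of 68 cells of the Kcnj8/Abcc9 subset. Few were left, fewest in DSS 2, and every value given without such cells rests on them. In that fit 1279 of 7477 genes were called, 865 higher and 414 lower, and the median over all genes was 0.25. With these cells kept and DSS 1 left out, the count was 1218. The part of these cells in each result was not tested further. The list counts given next stand beside 12.5% of all genes higher and 12.3% lower in the full set. Without those cells they stand beside 865 higher and 414 lower of 7477 genes.

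Of the 30 contractile genes, 28 were higher in the Pln/Rergl subset and 0 lower (median 2.81, beside 0.01 over all genes), and 27 were higher without the cells that held fibroblast UMIs. Acta2 stood at 11838, 9558, 15685 and 9554 CPM in the Pln/Rergl subset and 1103, 1488, 436 and 874 CPM in the Kcnj8/Abcc9 subset (log2 fold change 3.79, SE 0.31, edgeR adjusted p = 3.28e-06). Every library of the first subset exceeded every library of the second. Myocd stood at 209, 213, 206 and 255 CPM in the Pln/Rergl subset and 19.6, 34.6, 6.71 and 20.7 CPM in the Kcnj8/Abcc9 subset (log2 fold change 3.61, SE 0.31, edgeR adjusted p = 4.06e-06). Sorbs2, at 1559.7, 1785, 1755 and 1701 CPM in the Pln/Rergl subset, was nearly absent from the Kcnj8/Abcc9 subset, at 5.61, 34.6, 6.71 and 36.2 CPM (log2 fold change 6.69, SE 0.34, edgeR adjusted p = 1.57e-07). Tcap, which encodes the titin cap of muscle, had 681 UMIs in the Pln/Rergl subset and 0 in the Kcnj8/Abcc9 subset (at least 36.9-fold higher, edgeR adjusted p = 1.35e-05). Grip2 (at least 32.5-fold higher, edgeR adjusted p = 1.86e-05), Ntf3, a neurotrophin (at least 13.7-fold higher, edgeR adjusted p = 2.01e-04), and Hpse2, a relative of heparanase (at least 14.3-fold higher, edgeR adjusted p = 1.97e-04), were likewise unseen in the Kcnj8/Abcc9 subset.

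Channels followed the contractile genes, with 13 of 19 higher and 0 lower in the Pln/Rergl subset (median 1.81), and 10 of 18 higher without the cells that held fibroblast UMIs. Kcnma1 stood at 85.9, 95.04, 66.3 and 124 CPM in the Pln/Rergl subset and 5.61, 0, 0 and 0 CPM in the Kcnj8/Abcc9 subset (ratio of levels 37.3, 95% counting interval 10.3 to 309, edgeR adjusted p = 1.68e-05). Ryr2, a calcium release channel (ratio of levels 27.3, 95% counting interval 7.51 to 227, edgeR adjusted p = 7.37e-05), and Kcna5 (log2 fold change 4.52, SE 0.41, edgeR adjusted p = 5.84e-06) were higher too. P2rx1 stood at 271, 245, 321 and 248 CPM in the Pln/Rergl subset, and a single UMI was seen in the Kcnj8/Abcc9 subset (ratio of levels 219, 95% counting interval 39.2 to 8657, edgeR adjusted p = 3.58e-07). Inhba, the activin subunit, showed the same pattern with 1026 UMIs against 1 (ratio of levels 167, 95% counting interval 29.9 to 6600.3, edgeR adjusted p = 9.35e-07). Rock1 was higher as well, at 1472, 1537, 1582 and 1700.1 CPM in the Pln/Rergl subset and 303, 381, 376 and 859 CPM in the Kcnj8/Abcc9 subset (log2 fold change 1.98, SE 0.21, edgeR adjusted p = 2.04e-05).

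Vasoactive receptors were divided between the subsets, with 4 higher and 5 lower of 16 in the Pln/Rergl subset. Ednrb, the endothelin B receptor, stood at 7.16, 30.3, 19.6 and 32.1 CPM in the Pln/Rergl subset and 418, 277, 315 and 217 CPM in the Kcnj8/Abcc9 subset (log2 fold change -3.79, SE 0.42, edgeR adjusted p = 3.16e-05). Ednra, the other endothelin receptor, gave no call (log2 fold change 0.54, SE 0.26, edgeR adjusted p = 0.161). Adra2a, the α2A adrenergic receptor, stood at 2.86, 3.28, 3.68 and 10.3 CPM in the Pln/Rergl subset and 42.1, 121, 107 and 202 CPM in the Kcnj8/Abcc9 subset (log2 fold change -4.28, SE 0.33, edgeR adjusted p = 2.14e-06). Adra1a leaned the other way (log2 fold change 1.58, SE 0.44, edgeR adjusted p = 0.0179), but its call was lost without DSS 2 and without control 1. Without the cells that held fibroblast UMIs, 4 were higher and 4 lower of 14, with Ednrb at -4.99, Adra2a at -4.44 and Adra1a at 4.199 on the log2 scale.

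Notch3 itself stood at 527, 499.8, 544 and 632 CPM in the Pln/Rergl subset and 401, 718, 529.8 and 1035 CPM in the Kcnj8/Abcc9 subset, with overlapping libraries. Of the 7 Notch targets, 4 were higher and 1 lower in the Pln/Rergl subset (median 0.81), and 3 were higher and 1 lower without the cells that held fibroblast UMIs. Hey2 stood at 149.8, 145, 191 and 135 CPM in the Pln/Rergl subset and 19.6, 26.0, 33.5 and 51.7 CPM in the Kcnj8/Abcc9 subset (log2 fold change 2.43, SE 0.29, edgeR adjusted p = 5.58e-05). Nrarp (log2 fold change 2.47, SE 0.30, edgeR adjusted p = 6.70e-05) and Nrip2 (log2 fold change 4.60, SE 0.34, edgeR adjusted p = 1.55e-06) were also higher, each in every library. Without the cells that held fibroblast UMIs, the log2 fold changes were 1.60 for Hey2, 1.60 for Nrarp and 3.63 for Nrip2. Heyl did not follow Hey2, at 95.4, 66.4, 98.2 and 71.0 CPM in the Pln/Rergl subset and 112, 121, 141 and 98.3 CPM in the Kcnj8/Abcc9 subset (log2 fold change -0.35, SE 0.21, edgeR adjusted p = 0.2798). Pdgfrb was the target called lower, at 307, 265, 255 and 289.6 CPM in the Pln/Rergl subset and 558, 511, 557 and 1190.1 CPM in the Kcnj8/Abcc9 subset (log2 fold change -1.10, SE 0.21, edgeR adjusted p = 0.00174). Jag1 (log2 fold change 1.08, SE 0.25, edgeR adjusted p = 0.00649) and Hes1 (log2 fold change 0.81, SE 0.22, edgeR adjusted p = 0.0153) passed in the full set, but both calls were lost without the cells that held fibroblast UMIs and without DSS 1, and the call of Hes1 was also lost without DSS 2.

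Of the 24 mural and pericyte genes, 7 were higher and 10 lower in the Pln/Rergl subset, and 3 were higher and 10 lower of 23 without the cells that held fibroblast UMIs. Vtn, which encodes vitronectin, stood at 10.0, 9.83, 12.3 and 9.16 CPM in the Pln/Rergl subset and 382, 216, 215 and 248 CPM in the Kcnj8/Abcc9 subset (log2 fold change -4.57, SE 0.27, edgeR adjusted p = 2.81e-07). Higd1b, a marker of pericytes, stood at 11.0, 8.19, 11.0 and 8.01 CPM in the Pln/Rergl subset and 152, 69.2, 121 and 98.3 CPM in the Kcnj8/Abcc9 subset (log2 fold change -3.39, SE 0.29, edgeR adjusted p = 4.14e-06). Both were lower in every library of the Pln/Rergl subset, and without the cells that held fibroblast UMIs the log2 fold changes were -5.58 and -4.55. Both were scarce in fibroblasts, where Vtn stood at 2.50, 1.71, 1.47 and 2.77 CPM and Higd1b at 0, 0, 0 and 0 CPM. Steap4, a metalloreductase (log2 fold change -7.22, SE 0.37, edgeR adjusted p = 1.57e-07), and Colec11, a collectin (ratio of levels 0.00428, 95% counting interval 1.06e-04 to 0.0253, edgeR adjusted p = 1.54e-05), were lower too. Mcam, which encodes the adhesion protein CD146, was higher in the Pln/Rergl subset (log2 fold change 1.99, SE 0.30, edgeR adjusted p = 3.17e-04). Cspg4, which encodes the proteoglycan NG2, passed at 0.96 (edgeR adjusted p = 0.0250), but its call was lost when control 1, DSS 1 or DSS 2 was left out, and without the cells that held fibroblast UMIs.

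The largest falls in the Pln/Rergl subset were of genes nearly absent from it. Piezo2, a channel opened by mechanical force, had 1 UMI in the Pln/Rergl subset and 140 in the Kcnj8/Abcc9 subset (ratio of levels 0.00116, 95% counting interval 2.92e-05 to 0.00658, edgeR adjusted p = 1.57e-07). Car8 stood at 0.477, 2.46, 1.23 and 1.14 CPM in the Pln/Rergl subset and 227, 441, 630.4 and 5.17 CPM in the Kcnj8/Abcc9 subset (log2 fold change -7.64, SE 0.44, edgeR adjusted p = 2.77e-07), and Jam2, a junctional adhesion molecule, at 0.954, 2.46, 3.68 and 1.14 CPM and 443, 311, 516 and 25.9 CPM (log2 fold change -7.27, SE 0.39, edgeR adjusted p = 1.84e-07). In the Kcnj8/Abcc9 subset both were far lower in control 2 than in the other 3 libraries, as the summed fibroblast genes were. Spock2, Fxyd6, Pla2g7 and Adamtsl3 had log2 fold changes of -6.62 to -6.53. Pla1a, with 1 UMI in the Pln/Rergl subset, and Gm4956, Tmem229a and Cox8b, with 2 each, were the others of the 12 apart from Steap4.

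Matrix and signalling genes divided the subsets further. Of 21 basement membrane genes, 6 were higher and 13 lower in the Pln/Rergl subset, the same counts as without the cells that held fibroblast UMIs. Lama5, the laminin α5 chain, stood at 152, 209.8, 135 and 236 CPM in the Pln/Rergl subset and 19.6, 43.3, 20.1 and 20.7 CPM in the Kcnj8/Abcc9 subset (log2 fold change 3.03, SE 0.28, edgeR adjusted p = 7.94e-06). Lamb1, the laminin β1 chain, was the opposite, at 13.8, 8.19, 8.59 and 6.87 CPM in the Pln/Rergl subset and 435, 216, 322 and 300.1 CPM in the Kcnj8/Abcc9 subset (log2 fold change -4.90, SE 0.24, edgeR adjusted p = 1.57e-07). No library overlapped between the subsets for either chain, and without the cells that held fibroblast UMIs the log2 fold changes were 2.53 for Lama5 and -6.05 for Lamb1. Sparcl1, a matricellular protein, was higher (log2 fold change 3.05, SE 0.23, edgeR adjusted p = 1.55e-06), and Nid1, which links laminin to collagen IV, was lower (log2 fold change -2.54, SE 0.33, edgeR adjusted p = 1.03e-04). Fibrillar matrix genes gave 2 higher and 13 lower of 17, and 2 higher and 9 lower of 14 without the cells that held fibroblast UMIs. Bmp4 (log2 fold change -2.90, SE 0.30, edgeR adjusted p = 1.59e-05) and Cxcl12 (log2 fold change -2.10, SE 0.27, edgeR adjusted p = 8.60e-05) were lower and Fgf1 (log2 fold change 2.81, SE 0.32, edgeR adjusted p = 3.95e-05) was higher in the Pln/Rergl subset, and Kitl gave no call (log2 fold change -0.01, SE 0.17, edgeR adjusted p = 0.979).

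Inflammatory genes were mostly lower in the Pln/Rergl subset, with 2 higher and 18 lower of 27 (median -1.51), and 2 higher and 11 lower of 25 without the cells that held fibroblast UMIs. Ccl11, the eosinophil chemokine eotaxin, stood at 10.0, 23.8, 13.5 and 11.4 CPM in the Pln/Rergl subset and 842, 2189, 1945 and 688 CPM in the Kcnj8/Abcc9 subset (log2 fold change -6.35, SE 0.24, edgeR adjusted p = 2.73e-08). Fibroblasts held it as well, at 489, 899, 679 and 799.8 CPM. Cxcl1, a neutrophil chemokine (log2 fold change -3.54, SE 0.19, edgeR adjusted p = 1.84e-07), and the cytokine gene Il6 (log2 fold change -3.68, SE 0.29, edgeR adjusted p = 2.31e-06) were lower too. Without the cells that held fibroblast UMIs, the log2 fold changes were -7.78 for Ccl11, -3.75 for Cxcl1 and -1.80 for Il6. Type I interferon genes gave 0 higher and 12 lower of 20, and 0 higher and 5 lower of 16 without those cells. Interferon γ and antigen presentation genes gave 0 higher and 16 lower of 25, and 0 higher and 9 lower of 23 without them.

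**Figure D4:**
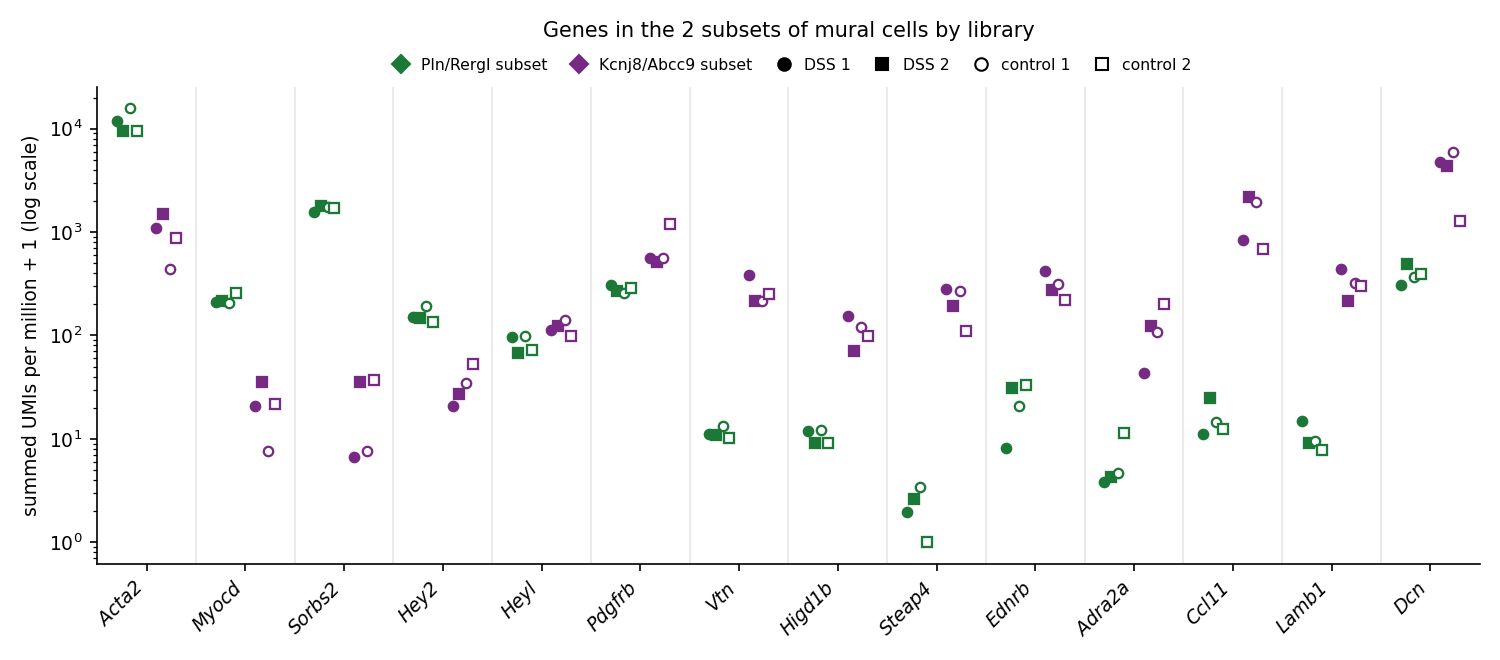
Each point is the level in 1 library (CPM plus 1, log axis; filled for DSS, open for control) in the Pln/Rergl subset and the Kcnj8/Abcc9 subset. Acta2, Myocd, Sorbs2 and Hey2 are higher in the Pln/Rergl subset in every library, Vtn, Higd1b, Ednrb and Lamb1 are lower, and Dcn in the Kcnj8/Abcc9 subset is lowest in control 2.

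The study compares 2 days of DSS with clean water, and no gene of the mural cells passed the test in that comparison. Among the genes of lowest unadjusted p, Rgs2 and Avpr1a, 2 genes of vessel tone, had positive log2 fold changes that did not pass. Epithelial genes such as Spink4 and Muc2 had negative ones, which did not pass either. The lists of vasoactive receptors and tone signalling genes as a whole lay near 0, as given below. The edgeR quasi-likelihood test with Benjamini-Hochberg adjustment called 0 of 9839 genes (0.0%), 94 genes had an unadjusted p under 0.05 (0.955%), and DESeq2 called 4 (Ccl7 higher, Spink4, Muc2 and Agr2 lower). The genes given next are those of lowest unadjusted p, and none passed. Without any filter on low counts, 40 genes passed, 27 higher and 13 lower. With the replicate number as a block, 58 passed, 32 higher and 26 lower, though the labels do not say that the numbers pair libraries. Without DSS 1 the filtered count was 9, and without DSS 2 it was 12, where the lone DSS library was assumed to vary like the controls.

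Rgs2 (chr1:143999338-144004161, minus strand), which dampens contraction by switching off Gq proteins, stood at 346 and 265 CPM in DSS and 156 and 137 CPM in control mural cells (log2 fold change 1.18, SE 0.34, edgeR adjusted p = 1.0). Avpr1a (chr10:122448499-122453452, plus strand), the vasopressin V1a receptor that contracts vessels, stood at 53.0 and 170.3 CPM in DSS and 25 and 47.3 CPM in control cells (log2 fold change 1.71, SE 0.59, edgeR adjusted p = 1.0). DSS and control libraries did not overlap for either gene, though DSS 1 and control 2 were close for Avpr1a. Both genes were picked for their low p, so the lack of overlap adds no support. The share of all genes without overlap was not computed. Adra2a stood at 9.17 and 11.3 CPM in DSS and 20.4 and 43.4 CPM in control cells (log2 fold change -1.54, SE 0.45, edgeR adjusted p = 1.0), lower in both DSS libraries. It is a gene of the Kcnj8/Abcc9 subset, whose share of members was 14.7% and 8.92% in DSS and 17.4% and 24.8% in control libraries. The part of that share in the level of Adra2a was not tested.

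Efemp1, a matrix protein, stood at 19.7 and 24.5 CPM in DSS and 5.56 and 3.94 CPM in control cells (log2 fold change 2.31, SE 0.45, edgeR adjusted p = 1.0). Its level in members was 0.247 times that in all cells, and fibroblasts held 436, 511, 521 and 472 CPM. Ccl7, a monocyte chemokine, stood at 12.9 and 101 CPM in DSS and 1.85 and 3.94 CPM in control cells (log2 fold change 4.30, SE 1.09, edgeR adjusted p = 1.0), and most of its signal was in DSS 2. Iglc2, an immunoglobulin light chain gene, stood at 389.6 and 49.6 CPM in DSS and 1.85 and 18.9 CPM in control cells (log2 fold change 4.496, SE 1.17, edgeR adjusted p = 1.0), highest in DSS 1, and at 0.0234 times the level of all cells. Arrdc3 (0.94), Gm48878 (1.61) and Fkbp5, a target of glucocorticoids (0.96), were the others with a positive log2 fold change among the 8 of lowest p.

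Spink4 had the lowest p on the other side, at 20.7 and 33.3 CPM in DSS and 249 and 398 CPM in control cells (log2 fold change -3.49, SE 0.42, edgeR adjusted p = 0.673). It is a gene of goblet cells, and its level in members was 0.0722 times that in all cells. Muc2, the goblet cell mucin, stood at 82.9 and 60.3 CPM in DSS and 289 and 312 CPM in control cells (log2 fold change -1.95, SE 0.34, edgeR adjusted p = 1.0), at 0.0590 times the level of all cells. Fibroblasts held similar levels of both, with Spink4 at 31.3 and 38.9 CPM in DSS and 259 and 353 CPM in control libraries and Muc2 at 143 and 94.4 CPM in DSS and 316 and 307 CPM in control libraries. Klk1, Agr2, Retnlb and Oit1 also lay lower in both DSS libraries, with log2 fold changes of -2.33 to -1.92 and levels of 0.0398 to 0.0564 times those of all cells, and Amn1 gave -1.63. The 15 epithelial genes together gave 474 and 937 CPM in DSS members and 969.5 and 1702 CPM in control members. The part of free RNA in these values was not tested.

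By list, Notch targets, contractile genes and channels lay near 0. Of the 7 Notch targets, 3 were above 0 (median -0.02), of 30 contractile genes 23 (0.06) and of 19 channel genes 9 (-0.00460), beside 5056 of all 9839 genes (0.01). Of the 16 vasoactive receptors tested, 8 lay above 0 (median -0.04), and of the 21 tone signalling genes 12 did (0.08). Hey2 stood at 126 and 134 CPM in DSS and 169 and 124 CPM in control cells (log2 fold change -0.06, SE 0.32, edgeR adjusted p = 1.0). Genes of inflammation lay above 0 in 24 of 27 cases (median 0.59), interferon γ and antigen presentation genes in 23 of 25 (0.48) and immediate early genes in 22 of 26 (0.35), and 0 genes of any of these lists passed. Without the members that held Dcn or Pdgfra UMIs, these became 21 of 26 (0.39), 19 of 22 (0.45) and 24 of 26 (0.40). The 5 immune cell genes tested were all above 0 (median 1.51), and DSS 1 held the highest immune level, as given above. Without DSS 1, 0 of 4 immune genes were above 0 (median -0.43), and without control 2 all 9 tested were (3.33). Without control 2 the medians were 1.30 for inflammation, 0.76 for interferon γ and antigen presentation and 1.09 for immediate early genes. Medians without control 1 or without DSS 2 were not computed. The 26 immediate early genes summed to 31362, 33902, 15824 and 40564 CPM in members, highest in control 2 and lowest in control 1. The 37 inflammation genes listed summed to 4510, 7074, 2679 and 5971 CPM, also lowest in control 1. Without DSS 1 the median for inflammation was 0.91, and 2 of its genes passed.

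The inflammatory genes split the libraries by their number as much as by treatment. Il6 stood at 13.2 and 95.5 CPM in DSS and 4.63 and 63.1 CPM in control cells, and Ptgs2, the inducible cyclooxygenase, at 48.2 and 275 CPM in DSS and 5.56 and 176 CPM in control cells. The second library of each group was high for both. Cxcl10, a chemokine that interferon induces, stood at 8.15 and 104 CPM in DSS and 2.78 and 20.5 CPM in control cells, with DSS 2 far above the rest. Cebpb, a transcription factor of the acute phase, stood at 1412 and 1969 CPM in DSS and 739 and 1441 CPM in control cells (log2 fold change 0.74, SE 0.46, edgeR adjusted p = 1.0), and DSS 1 lay below control 2. Nfkbia, the inhibitor that NF-κB itself induces, stood at 164 and 217 CPM in DSS and 118 and 122 CPM in control cells (log2 fold change 0.77, SE 0.32, edgeR adjusted p = 1.0).

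**Figure D5:**
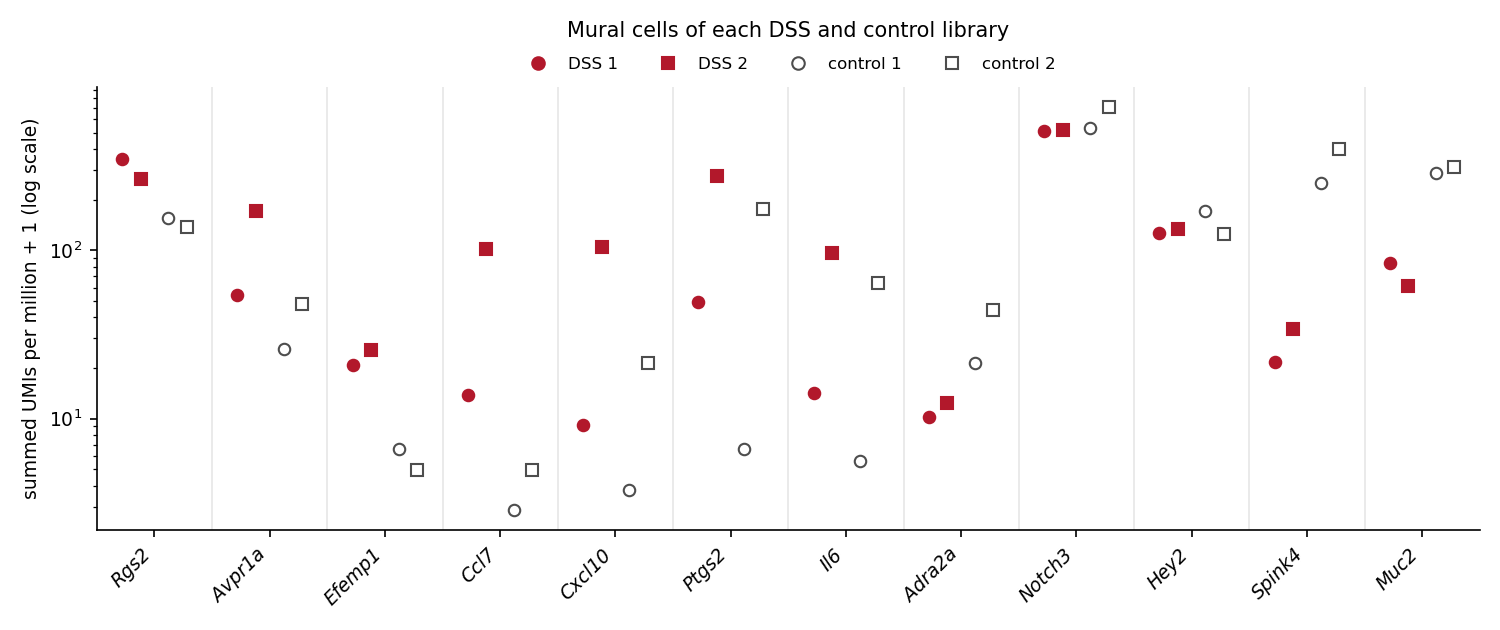
Levels in mural cells are plotted for each library (CPM plus 1, log axis), with DSS left of control for each gene. Rgs2, Avpr1a, Efemp1 and Ccl7 are higher and Spink4 and Muc2 lower in both DSS libraries, while Ptgs2 and Il6 are high in DSS 2 and control 2; none of these genes passed the test.

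Whether DSS acted differently on mural cells was tested as an interaction. The difference of the DSS effects between mural cells and visceral smooth muscle passed for 0 of 10501 genes (0.0%) in edgeR and for 0 in DESeq2. In edgeR 279 genes had an unadjusted p under 0.05 (2.66%). The number that passed changed when a library was left out, which leaves 1 library in a group. Between mural cells and fibroblasts the difference passed for 0 of 12822 genes (0.0%) in edgeR and for 0 in DESeq2, while 405 had an unadjusted edgeR p under 0.05 (3.16%). Here too the number changed when a DSS library was left out. With the narrower visceral gate of 17 cells the difference passed for 0 of 7708 genes (0.0%) in edgeR and for 0 in DESeq2, while 71 had an unadjusted edgeR p under 0.05 (0.921%). Rgs2 stood at 117 and 82.6 CPM in DSS and 35.1 and 32.7 CPM in control fibroblasts, and its DSS effects in mural cells and fibroblasts differed by -0.44 (edgeR adjusted p = 1.0). In visceral smooth muscle it stood at 68.1 and 187 CPM in DSS and 107 and 192 CPM in control libraries (1.61, edgeR adjusted p = 1.0). The lowest p against fibroblasts belonged to Efemp1 (2.33), Ccl7 (2.66) and Phlda1 (-1.81), each with an edgeR adjusted p of 0.269. Without a filter on low counts, 13 genes passed against visceral smooth muscle and 11 against fibroblasts.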

How the data were processed

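Deposited values were raw whole-number UMI counts for 55450 genes in each barcode. Cell Ranger 6.1.1 and the build GRCm38 were used, per the submitters' processing notes, which give no further roles. Per the labels, capture used a version 3 kit and library making a version 2 kit. Counts were summed per library and cell class, since cells are not replicates. The main test was edgeR 4.0.16 (quasi-likelihood, run in R 4.3.3, two-sided, TMM, filterByExpr, Benjamini-Hochberg over all genes tested, threshold 0.05). DESeq2 1.42.0, scaling, filters, doublets by Scrublet in scanpy 1.11.5, mitochondrial limits, thinning and each library left out were alternatives. Doublets were kept unless the gate removed them. The wider visceral gate and the removal of cells with Dcn or Pdgfra UMIs were added after the data were seen. A fold against a class with 0 UMIs used a floor of 3 UMIs over the class. Intervals cover counting error only. Positions are from GRCm38, promoters from RefSeq.

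The cells and gene lists were chosen with earlier results of these data known. Named genes were the 12 with the largest fold change in each direction among those that passed, that averaged 50 CPM or more in the higher class (20 CPM for DSS, where the 8 of lowest p were taken), and listed genes. Gate genes were not tested. The edgeR test was checked on simulated counts.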

Additional observations from a re-analysis of the deposited data

Results flagged for a closer look

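Values were looked at again where 1 library's log2 ratio of levels, with 5 CPM added, stood apart from the other 3 by most of their whole range. Chance gives this in about 1 in 20 groups of libraries. Gm4956 stood at 0, 0.819, 1.23 and 0 CPM in the Pln/Rergl subset and 188, 225, 282 and 10.3 CPM in the Kcnj8/Abcc9 subset, and in control 2 the gap to the nearest library was 0.935 of the range. Ly6c1, an antigen gene of endothelial and immune cells, stood at 3.74, 16.3, 7.41 and 0.789 CPM in mural cells and 177, 419.7, 241 and 191 CPM in fibroblasts, with a gap of 0.901 in control 2. Lbp, which encodes a binding protein of bacterial lipopolysaccharide, stood at 1.02, 4.398, 0.926 and 1.58 CPM in mural cells and 58.3, 96.9, 57.5 and 85.0 CPM in fibroblasts, with a gap of 0.887 in control 2. The cause was not tested.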

How the results depend on the processing

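For DSS against control, DESeq2 called 4 genes, no filter on low counts 40, and leaving out 1 library 0 to 12. For the subsets the count of 2133 became 1323 without the library block, 1279 without the members that held Dcn or Pdgfra UMIs, and 1218 to 2198 with 1 library left out. Against visceral smooth muscle by the narrow gate, 400 became 156 with DESeq2, 251 with relative log expression scaling, 236 with a 10% mitochondrial limit, 2221 with the wider gate and 73 to 365 with 1 library left out. By the wider gate, 2221 became 1447 without the library block and 1431 to 1987 with 1 library left out. The interaction with visceral smooth muscle gave 13 genes with no filter and 2 to 35 with 1 library left out, and that with fibroblasts gave 11 with no filter and 0 to 55. The share difference was -1.59 percentage points among cells without Ptprc and with fewer than 2 Epcam UMIs. The cause was not tested. For single named genes under all alternatives run, no called gene changed direction, and 14 values for the subsets, 8 against fibroblasts and 1 against visceral smooth muscle lost their call. Calls were gained by 35 values for DSS against control and by 2 for the subsets. With 2 libraries per group, small DSS effects could not be told from the spread between libraries.

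The replicate numbers are not said to pair the libraries. The fit with the replicate block called 58 genes for DSS against control, 32 higher and 26 lower, among them 3 inflammation genes and 1 interferon γ or antigen presentation gene, all higher. The difference of replicate 1 minus replicate 2 in DSS correlated with that in control at r = 0.549 across 6276 genes, which are not independent replicates (5 CPM added).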
